A study of Mus musculus with 6 samples.

Results

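Ribosomal protein genes are the genes whose mouse symbols begin with Rpl (large subunit) or Rps (small subunit) followed by a digit, together with Rplp0, Rplp1, Rplp2 and Rpsa, without the kinase genes whose symbols begin with Rps6k. This rule found 139 of the 22367 protein-coding genes of the GENCODE M1 annotation on chromosomes 1 to 19, X and Y of mouse build mm9. Of these, 76 encode the proteins of the cytoplasmic ribosome (45 of the large subunit and 31 of the small subunit) and are called canonical here. A further 8 are paralogs of a canonical gene, 54 carry a pseudogene-like symbol such as Rpl21-ps3 although the annotation types them as protein-coding, and 1, Rps19bp1, encodes a protein that binds Rps19 and is no part of the ribosome. Rpl41 has no entry under that symbol in the annotation and was not analysed here.

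The data were the ATAC-seq peaks of mouse cells of strain 129SV in 3 states. In ATAC-seq a transposase inserts sequencing adapters into accessible DNA, and a peak is a stretch where such insertions pile up. J1 embryonic stem cells (ESCs) were grown in a serum medium with LIF and the inhibitors CHIR99021 and PD0325901 (2i). D-EPSCs, extended pluripotent stem cells, were grown in N2B27 with serum replacement, LIF, CHIR99021, dimethindene maleate and minocycline, while L-EPSCs, expanded potential stem cells, were grown in DMEM/F12 with serum replacement, LIF, CHIR99021, PD0325901, A-419259, XAV939, JNK inhibitor VIII and SB203580. LIF and CHIR99021 were thus common to the 3 states, and fibroblast feeder cells were an option in the culture of ESCs and L-EPSCs, with both EPSC types kept without feeders before the assay. Each state had 2 libraries, which were technical replicates, and a single list of peaks, so the lists used here hold no value per replicate, no difference between states was tested against replicate error here, and they do not show how deeply each state was sequenced, so depth is unknown here. There were 28965 peaks in the ESC list, 50225 in that of D-EPSCs and 46601 in that of L-EPSCs, and the narrowest were 128, 117 and 118 bp wide.

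Every growing cell needs ribosomal proteins in nearly equal amounts, so their genes are among the most highly transcribed of the genome and are active in all dividing cell types. Their promoters usually hold CpG-rich DNA, often lack a TATA box, and begin transcription at a C within a run of pyrimidines, the terminal oligopyrimidine tract through which growth signals control translation of the mRNA. Mammalian genomes also carry many intronless copies of these genes, made by reverse transcription of their mRNAs, most of which have no promoter of their own. Since such genes are transcribed in every dividing cell, the peaks at their promoters serve as a reference for how completely and how widely each list marks an active promoter.

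The sequences around the starts of 10 canonical genes that had no ESC peak are shown first, since these are the promoters that the lists did not all mark, and Rpl7, which had the widest peaks, is shown for contrast and was chosen after its values were seen. Each runs 5′ to 3′ on the coding strand of mm9 from 80 bases before the annotated start to 20 bases after it. Capitals mark a run of at least 5 pyrimidines, read from a C within 10 bases of the start shown, and any match to the 9 factor consensus sequences given below. On the plus strand are Rpl12 at chr2:32816999-32817099, Rpl19 at chr11:97888158-97888258, Rpl36 at chr17:56752738-56752838, Rpl37a at chr1:72757754-72757854, Rpl4 at chr9:64021114-64021214, Rpl6 at chr5:121654410-121654510 and Rpl8 at chr15:76734421-76734521. On the minus strand are Rpl23a at chr11:77997066-77997166, Rplp1 at chr9:61762325-61762425, Rps18 at chr17:34092642-34092742 and Rpl7 at chr1:16094288-16094388.
Rpl12: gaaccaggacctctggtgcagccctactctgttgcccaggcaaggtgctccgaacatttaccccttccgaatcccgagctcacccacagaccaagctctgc
Rpl19: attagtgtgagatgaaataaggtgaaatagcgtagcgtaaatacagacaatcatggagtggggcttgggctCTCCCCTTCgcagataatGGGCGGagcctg
Rpl23a: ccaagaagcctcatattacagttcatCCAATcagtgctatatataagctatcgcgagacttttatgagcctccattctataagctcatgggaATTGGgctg
Rpl36: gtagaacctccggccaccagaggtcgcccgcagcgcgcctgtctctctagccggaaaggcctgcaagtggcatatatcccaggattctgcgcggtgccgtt
Rpl37a: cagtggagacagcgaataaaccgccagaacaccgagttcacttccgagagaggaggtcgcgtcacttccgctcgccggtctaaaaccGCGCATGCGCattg
Rpl4: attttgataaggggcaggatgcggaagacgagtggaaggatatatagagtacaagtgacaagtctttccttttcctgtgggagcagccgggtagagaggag
Rpl6: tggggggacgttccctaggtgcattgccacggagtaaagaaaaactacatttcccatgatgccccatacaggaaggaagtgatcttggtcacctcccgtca
Rpl8: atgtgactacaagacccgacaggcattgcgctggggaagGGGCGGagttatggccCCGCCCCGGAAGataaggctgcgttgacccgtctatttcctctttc
Rplp1: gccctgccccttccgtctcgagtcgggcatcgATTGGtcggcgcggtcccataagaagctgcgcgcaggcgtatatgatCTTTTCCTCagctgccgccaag
Rps18: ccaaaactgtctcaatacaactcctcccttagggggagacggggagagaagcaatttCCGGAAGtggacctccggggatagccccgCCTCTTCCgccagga
Rpl7: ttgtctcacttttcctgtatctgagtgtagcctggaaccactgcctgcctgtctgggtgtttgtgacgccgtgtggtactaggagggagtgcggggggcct
The run of 9 pyrimidines in Rplp1 begins 1 base before the start, and that of 8 in Rps18 begins 6 bases after it. The 9 marked in Rpl19 begin 9 bases before the start. They directly follow a c and a t, so they are the end of a longer run that opens outside the 10 bases searched. Rpl19 has a GC box, Rpl8 has GC boxes, 1 of which overlaps an ETS/GABP match, Rps18 has an ETS/GABP match, Rpl37a has an NRF1 match on both strands, and Rpl23a and Rplp1 have CCAAT boxes. No capitals appear in the stretches of Rpl12, Rpl36, Rpl4, Rpl6 and Rpl7. The Rpl7 start shown lay outside its ESC and D-EPSC peaks, which ended 49 and 48 bp before it, and inside its L-EPSC peak.

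A gene was given a peak when at least 1 bp of a peak fell within 1000 bp of any start of its protein-coding transcripts. Among the 76 canonical genes, 64 had a peak in the ESC list (84.2%, 95% Wilson interval 74.4 to 90.7), 76 in the D-EPSC list (100%, 95.2 to 100) and 75 in the L-EPSC list (98.7%, 92.9 to 99.8). The intervals cover counting error only. In the ESC and D-EPSC lists, Rpl13a had no peak within 1000 bp of the start of its transcript with the longest coding sequence. Its peaks there stood near another annotated start, 7102 and 7062 bp or more downstream. Rps10 likewise counted in the ESC and L-EPSC lists through another start, with peaks 1172 and 1155 bp or more downstream. For all 139 members the counts were 70, 86 and 84, beside 51.5% of all protein-coding genes in the ESC list, 63.4% in the D-EPSC list and 60.8% in the L-EPSC list. The 139 members taken as a whole, at 50.4%, 61.9% and 60.4%, were thus close to the share of all genes. They were a mixture, since at least 84.2% of the canonical genes and at most 3.70% of the pseudogene-like members had a peak in each list. All 3 lists marked 64 canonical genes and 69 members, beside 50.4% of all coding genes. Both EPSC lists but not the ESC list marked 11 canonical genes (14.5%) and 15 members, beside 9.16% of all coding genes, and no canonical gene had a peak in the ESC list alone.

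**Figure D1:**
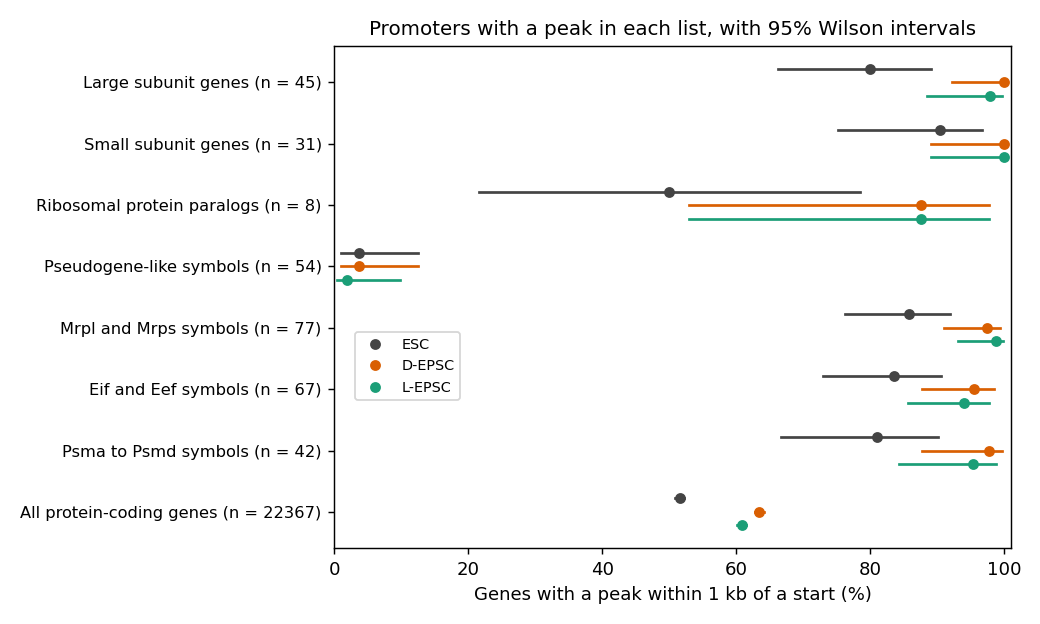
Share of genes with a peak within 1 kb of an annotated start, in percent (x axis), for groups of genes (y axis) in the ESC, D-EPSC and L-EPSC lists. Points are shares and bars 95% Wilson intervals, and the reader should see canonical ribosomal protein genes between 80% and 100%, pseudogene-like symbols under 4% and all coding genes between 51.5% and 63.4%.

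The large subunit genes had a peak in 36 of 45 cases in the ESC list, 45 in the D-EPSC list and 44 in the L-EPSC list, and the small subunit genes in 28, 31 and 31 of 31. Counts by role in the ESC list follow, to be read beside the 84.2% of all canonical genes and 51.5% of all coding genes. The groups are small, their intervals are wide (15 to 85% for the stalk, 35.4 to 87.9% for the exit tunnel) and no difference between them was tested. The stalk of the large subunit, which recruits translation factors, is built from Rplp0, Rplp1, Rplp2 and the adjoining Rpl12, and 2 of these 4 genes had an ESC peak. Of 9 genes for proteins in or around the exit tunnel, through which the new polypeptide leaves, 6 had an ESC peak. The head of the small subunit, which contacts mRNA and tRNA, had 12 of 13. The genes for Rpl5 and Rpl11, which bind the 5S rRNA and, when free, the p53 regulator Mdm2, both had one. Among 18 genes mutated in Diamond-Blackfan anaemia, a human red cell disease of ribosomal protein shortage, 18 had a peak in each list. Rps10, in this group and that of the head, counted in ESCs and L-EPSCs only through another annotated start. Each of these role groups was complete in both EPSC lists.

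The 12 canonical genes without an ESC peak were Rpl12, Rpl19, Rpl23a, Rpl36, Rpl37a, Rpl4, Rpl6, Rpl8, Rplp1, Rps18, Rps4x and Rps9. Rpl4, whose product reaches into the exit tunnel, had a D-EPSC peak of 1141 bp, and in the L-EPSC list peaks of 809 and 162 bp. Rpl12, at the base of the stalk, had peaks of 678 bp in D-EPSCs and, in L-EPSCs, 549 bp. Rpl37a had peaks of 620 and 594 bp in the D-EPSC and L-EPSC lists. The D-EPSC peaks of these 3 genes were wider than the median of the canonical genes, 555 bp.

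For Rplp1, an acidic protein of the stalk, the D-EPSC peak spanned 512 bp and the L-EPSC peak 574 bp. Rpl19 had 533 bp in the D-EPSC list and 405 bp in the L-EPSC list, and Rpl23a, at the rim of the exit tunnel, had 308 and 362 bp. Rps18, of the head of the small subunit, had 567 bp in D-EPSCs and, in L-EPSCs, 322 bp. Rpl6 had 338 bp in D-EPSCs and, in L-EPSCs, 475 bp, and Rps9 had 241 and 539 bp, so neither EPSC list was the wider throughout.

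The least marked genes were Rpl8 and Rps4x. Rpl8, whose product lies close to the catalytic centre of the large subunit, had a single peak in the study, of 215 bp in the D-EPSC list. Rps4x, the X-linked gene of a small subunit protein, had peaks of 122 and 170 bp in the D-EPSC and L-EPSC lists, the lowest values among canonical genes when the widest peak of each gene is taken. At Rpl36 the wider peak (576 bp in D-EPSCs, 350 bp in L-EPSCs) lay upstream and almost wholly outside the window, of which peaks covered 231 and 226 bp in all, and the peak over the start itself was 225 bp in D-EPSCs and, in L-EPSCs, 211 bp. The ESC peak nearest to the start of these 12 genes lay between 3456 bp (Rpl36) and 34510 bp (Rpl37a) away.

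As a group, the 12 genes had a median D-EPSC width of 522.5 bp (range 122 to 1141), beside 577 bp (268 to 1761) for the 64 canonical genes with an ESC peak, and the ranges overlapped. In the L-EPSC list the medians were 475 bp (170 to 809, 11 genes) and 580.5 bp (297 to 1739). Another coding gene began within 1 kb of 3 of the 12 genes and of 11 of the 64, and 4 of the 12 but 37 of the 64 had several annotated starts. A gene with several starts has a wider region in which a peak counts. When a single start per gene was used, the count of members in the ESC list went from 70 to 68, and the part of the number of starts in the gaps was not tested.

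List length moved with these counts. When each list was limited to its 28965 widest peaks, the length of the ESC list, the canonical genes with a peak numbered 64 in the ESC list, 70 in the D-EPSC list (92.1%) and 74 in the L-EPSC list (97.4%), and all coding genes fell to 58.7% in the D-EPSC list and 56.3% in the L-EPSC list. At that length the D-EPSC list lacked 6 canonical genes against 12 in the ESC list, and the part of depth in the difference was not tested. Leaving out peaks under 128 bp took only Rps4x from the D-EPSC list.

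Canonical promoters carried narrower peaks than most coding genes. The widest peak at a canonical gene had a median width of 360.5 bp in the ESC list (order-statistic interval 293 to 429), 555 bp in the D-EPSC list (499 to 637) and 574 bp in the L-EPSC list (475 to 597). Over all coding genes with a peak the medians were 541, 741 and 690 bp. Of those genes, 23.6% had a narrower peak than the canonical median in the ESC list, 29.2% in the D-EPSC list and 35.7% in the L-EPSC list. The small subunit genes had a lower median than the large subunit genes in each list, at 287.5 against 367 bp in ESCs, 520 against 576 bp in D-EPSCs and 539 against 575.5 bp in L-EPSCs, with overlapping intervals. More than 1 peak stood at 2 canonical promoters in the ESC list, 5 in the D-EPSC list and 6 in the L-EPSC list, beside 804 of the 11522 coding genes with a peak in ESCs, 1525 of 14188 in D-EPSCs and 1460 of 13593 in L-EPSCs.

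**Figure D2:**
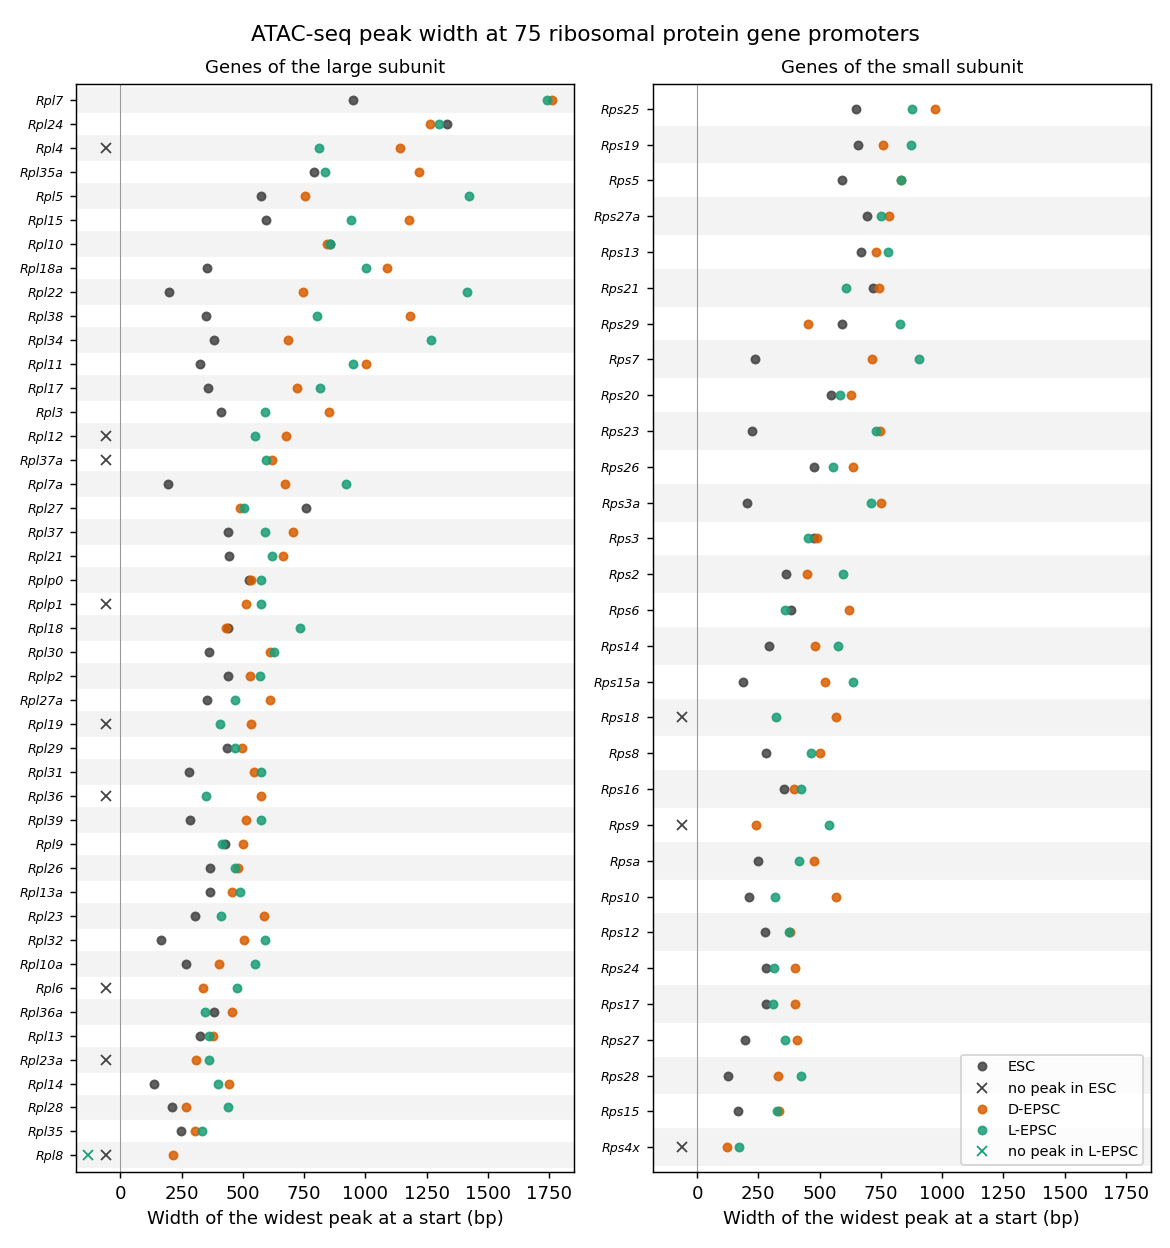
Width in bp of the widest peak within 1 kb of a start (x axis) for 75 canonical genes (y axis, ordered by the mean over the lists that have a peak, with 1 canonical gene not shown), with 1 point per list and a cross left of 0 where a list has no peak. The ESC points lie mostly to the left of the D-EPSC and L-EPSC points, with medians over all canonical genes of 360.5, 555 and 574 bp, and 12 ESC crosses and 1 L-EPSC cross are seen.

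Among genes with a peak in all 3 lists, Rpl7 had the widest, at 949, 1761 and 1739 bp in ESCs, D-EPSCs and L-EPSCs. Rpl24, which bridges the subunits, followed with 1335, 1265 and 1302 bp and was the widest of all in the ESC list. Rpl35a had 789, 1220 and 834 bp, and Rpl15 had 593, 1180 and 942 bp. Rpl35a and Rpl15 share their start region with a gene on the opposite strand, Iqcg at 235 bp and Nkiras1 at 69 bp. Rpl5 had 573, 753 and 1423 bp in ESCs, D-EPSCs and L-EPSCs, the largest difference between the EPSC lists among these wide genes.

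The narrowest were Rps15, at 168, 333 and 327 bp, Rps28 at 128, 329 and 426 bp and Rpl35 at 249, 306 and 332 bp in the ESC, D-EPSC and L-EPSC lists. Next came Rpl28, at 210, 268 and 439 bp, and Rps27, at 194, 406 and 360 bp. The ESC peaks of Rps28 and Rps15 sat at 128 and 168 bp, which are the 2 most frequent widths of the ESC list, held by 817 and 2015 of its peaks. Another coding start within 1 kb (14 canonical genes) went with a median of 429, 619 and 665.5 bp in ESCs, D-EPSCs and L-EPSCs, beside 352, 539 and 573 bp for the other genes.

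Other genes of known role stood between these extremes. Rplp0, the scaffold of the stalk, had nearly equal peaks of 524, 534 and 573 bp in ESCs, D-EPSCs and L-EPSCs. Rplp2 had 438, 531 and 571 bp. Rpl11 had 327 bp in ESCs and 1001 and 951 bp in D-EPSCs and L-EPSCs, while Rpl38, known for its part in translating Hox mRNAs, had 349, 1182 and 803 bp.

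In the small subunit, Rps19, the gene most often mutated in Diamond-Blackfan anaemia, had 658, 759 and 874 bp in ESCs, D-EPSCs and L-EPSCs. Rps6, the substrate of S6 kinase, had 382, 620 and 358 bp, and Rpsa, also known as the laminin receptor precursor, had 250, 476 and 415 bp. Rps27a, made as a fusion with ubiquitin, had similar widths of 695, 782 and 749 bp, whereas Rps15a had 186, 520 and 637 bp. X-linked Rpl10, which joins the large subunit late in its assembly, had 856, 842 and 854 bp, the most equal widths of the canonical genes named here.

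Widths were next compared between lists gene by gene. Over the 64 canonical genes with a peak in both, the median ratio of D-EPSC to ESC width was 1.52 (interval 1.31 to 1.82), beside 1.36 over all coding genes with a peak in both. The D-EPSC peak was wider in 59 of 64 canonical genes and 64 of 69 members, beside 82.6% of all coding genes. The L-EPSC to ESC ratio was 1.40 (1.33 to 1.74), beside 1.27, with a wider L-EPSC peak in 56 of 64 canonical genes and 60 of 69 members, beside 77.2% of all coding genes. The D-EPSC to L-EPSC ratio was 1.02 (0.944 to 1.07), beside 1.05, with 41 of 75 canonical genes and 47 of 84 members wider in D-EPSCs, beside 59.7% of all coding genes. Both EPSC ratios share the ESC list. On the autosomes alone the canonical ratios were 1.55 for D-EPSCs and 1.40 for L-EPSCs over ESCs.

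**Figure D3:**
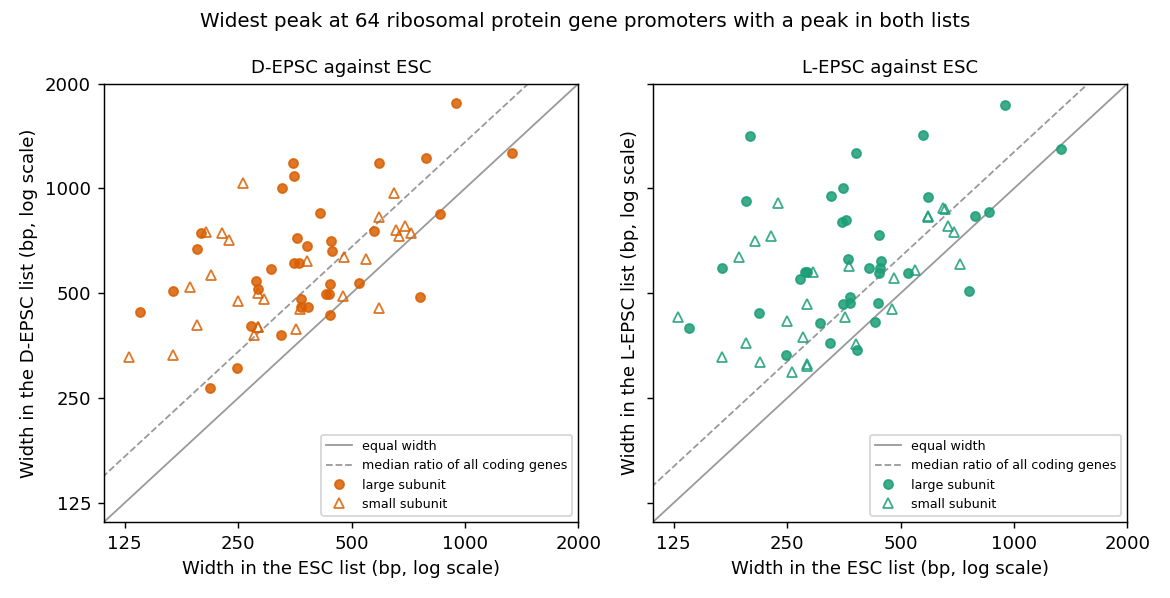
Width of the widest peak in the D-EPSC list (left) or the L-EPSC list (right) on the y axis against the ESC list on the x axis, both in bp on log scales, for the 64 canonical genes with a peak in both lists, with filled circles for the large and open triangles for the small subunit. The solid line marks equal width and the dashed line the median ratio of all coding genes (1.36 and 1.27), and 59 and 56 points lie above the solid line.

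Several canonical genes had much wider peaks in the EPSC lists. Rpl22 went from 199 bp in ESCs to 744 bp in D-EPSCs (3.74-fold) and, in L-EPSCs, 1413 bp (7.10-fold), and its ESC peak ended 23 bp before the start. Rps3a had 205, 752 and 708 bp, with ratios of 3.67 and 3.45.

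Rpl7a had 195, 671 and 920 bp (3.44-fold and 4.72-fold) and Rps7 had 236, 712 and 907 bp (3.02-fold and 3.84-fold). These genes had narrow ESC peaks, all under the ESC median of 360.5 bp. At the other end, Rpl27 had 759 bp in ESCs but 489 bp in D-EPSCs (0.644-fold) and, in L-EPSCs, 506 bp (0.667-fold). Rpl24 and Rpl10 were also narrower in both EPSC lists, by ratios between 0.948 and 0.998, so that Rpl27 was furthest below equal width.

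Rps29 was narrower in D-EPSCs (593 against 453 bp) and wider in L-EPSCs (828 bp), and Rps21 was narrower in L-EPSCs (717 against 608 bp) at 743 bp in D-EPSCs. Rpl36a, on the X chromosome, had 384, 456 and 344 bp. Across canonical genes the widths of the D-EPSC and L-EPSC lists ranked more alike (Spearman's rho 0.70, 75 genes) than those of ESCs with D-EPSCs (0.47, 64 genes) or with L-EPSCs (0.43, 64 genes), a description across genes, which share a list and its depth and are not replicates.

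The position of the peaks around the start was also described, with a single start per gene, that of the transcript with the longest coding sequence. Any annotated start lay inside a peak in 53, 75 and 74 canonical genes of the ESC, D-EPSC and L-EPSC lists, and in 57, 83 and 81 members, beside 42.2%, 57.4% and 54.0% of all coding genes. In the ESC list, the position most often covered lay at -51 to -23 bp from the single start, upstream of it, where 71.1% of the canonical genes had a peak, and the start itself was covered in 63.2%. In the D-EPSC and L-EPSC lists the top was 93.4%, from -89 to 28 bp in D-EPSCs and from -45 to 16 bp in L-EPSCs. Coverage of at least 50% of the top value ran from -263 to 165 bp in ESCs, from -305 to 247 bp in D-EPSCs and from -275 to 249 bp in L-EPSCs. For all coding genes these spans were wider, with 611, 746 and 724 bp in ESCs, D-EPSCs and L-EPSCs against 429, 553 and 525 bp for the canonical genes. For the entries with Mrpl or Mrps symbols, described below, they were 568, 524 and 478 bp. These were wider than the canonical spans in ESCs but narrower in both EPSC lists.

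**Figure D4:**
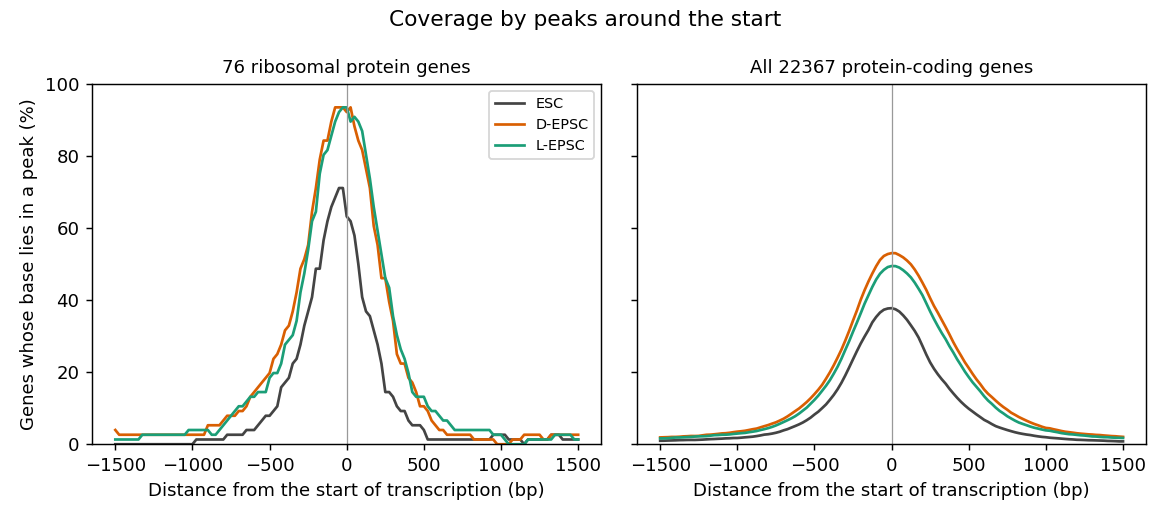
Percent of genes whose base at a given distance from the start lies in a peak (y axis) against the distance from the start in bp, negative upstream (x axis), for the 76 canonical genes (left) and all 22367 protein-coding genes (right) in the 3 lists. Canonical curves reach 71.1% in ESCs and 93.4% in both EPSC lists, against 37.8%, 53.0% and 49.5% for all coding genes in the ESC, D-EPSC and L-EPSC lists, and the canonical curves are narrower.

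Both ends of the canonical peaks were compared next. Over the 48 canonical genes whose single start lay inside both peaks, the D-EPSC peak reached a median of 107.5 bp further downstream and 56 bp further upstream than the ESC peak, and it reached further downstream in 40, further upstream in 37 and further on both sides in 32. The L-EPSC peak reached 98 bp further downstream and 21.5 bp further upstream, and did so downstream in 36, upstream in 34 and on both sides in 24. Taken over all canonical genes whose start lay inside the peak of a list (48, 70 and 71), the median reach upstream was 216.5, 296.5 and 272 bp and that downstream 166, 220 and 247 bp in the ESC, D-EPSC and L-EPSC lists, so the larger difference from ESCs was downstream in L-EPSCs for both sets of genes, and in D-EPSCs downstream for the genes compared in pairs and upstream for the wider set. Between D-EPSCs and L-EPSCs (69 genes) the median differences of D-EPSCs minus L-EPSCs were 16 bp upstream and -3 bp downstream. For all coding genes the downstream limit of the covered span was at 308, 423 and 409 bp in ESCs, D-EPSCs and L-EPSCs, and the upstream limit at -302, -322 and -314 bp. Of the bases of canonical ESC peaks, 94.2% lay inside the D-EPSC peaks and 91.9% inside the L-EPSC peaks, close to the 90.9% and 88.9% over all coding genes.

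The members outside the canonical list were mainly paralogs and pseudogene-like copies. The paralogs had a peak in 4 of 8 cases in ESCs and 7 of 8 in each EPSC list (50% and 87.5%), beside 51.5%, 63.4% and 60.8% of all coding genes in the ESC, D-EPSC and L-EPSC lists. Rpl22l1, the paralog of Rpl22, had 312, 694 and 599 bp in the ESC, D-EPSC and L-EPSC lists, Rpl7l1 had 594, 1290 and 748 bp, Rpl36al had 728, 1184 and 1591 bp, and Rps27l, known as a p53 target, had 845, 853 and 834 bp. Rpl10l, Rpl39l and Rps4y2 had no ESC peak, and their D-EPSC and L-EPSC peaks were 524 and 196 bp, 228 and 358 bp, and 672 and 755 bp. Rpl10l and Rpl39l are best known from the testis. Rpl3l, the muscle paralog of Rpl3, had no peak in any list. Rps19bp1 had peaks of 426 and 296 bp in the EPSC lists and none in ESCs.

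Of the 54 pseudogene-like members, each with a single exon, 2 had a peak in ESCs, 2 did so in D-EPSCs and 1 in L-EPSCs, and no list had a peak over a start of any of them (0 of 54, which allows up to 6.64% by the Wilson interval). They are named after 30 canonical genes, and Rpl21 has the most, with 9. Rpl30-ps6 had peaks of 128, 778 and 774 bp in ESCs, D-EPSCs and L-EPSCs, all at least 712 bp from its start, with 4 bp of the ESC peak inside the window. Rpl21-ps3 had an ESC peak of 361 bp, 829 bp away, and Rpl21-ps7 a D-EPSC peak of 156 bp, 184 bp away.

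The authors kept read pairs of mapping quality 20 or more, a filter that removes reads from repeated sequence, so the uniqueness of the windows was measured. Of the stretches of 100 bases in the 1000 bp on either side of a single start, a median of 99.9% in canonical genes (range 84.5 to 100%) and 92.1% in the pseudogene-like members (5.26 to 100%) occurred nowhere else in the genome on either strand. In 33 of the 54 pseudogene-like members the share was at least 90%, and in 2 it was under 50%, Rps19-ps1 and Rps19-ps2. The 12 canonical genes without an ESC peak had shares from 95.4% (Rpl23a) to 100%.

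The base composition was read from 250 bases before to 50 from the start on. Canonical promoters had a median GC content of 56.2% (range 40.7 to 67.7) and a CpG observed/expected ratio, the number of CpG dinucleotides over that given by the C and G content, of 0.864. All coding genes had 55.7% and 0.550, those with an ESC peak 61.3% and 0.773, and the pseudogene-like members 43.3% and 0.402. The 12 canonical genes without an ESC peak had 53.0% and 0.817, and the 64 with one 56.5% and 0.864. Width in any list showed no clear relation to GC or CpG content across canonical genes, with Spearman's rho between -0.07 and 0.08.

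A pyrimidine run of at least 5 bases, beginning with C within 10 bases of any annotated start, stood at 48 of 76 canonical genes (63.2%) with a median length of 9 bases, and at 44.2% of all coding genes with a median of 6. The small subunit had 24 of 31, the large subunit 24 of 45, the genes without an ESC peak 5 of 12 and those with one 43 of 64. Rps2 had the longest run, of 21 bases, followed by Rps24 with 18 and Rpl32 with 17. Because the run was looked for at annotated starts, a start annotated a few bases away from the true one can hide it. The search also began no earlier than 10 bases before a start. A run that opens further upstream was counted from a C within it, as at Rpl19.

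The 9 consensus sequences were searched on both strands without mismatch in the same 300 bases, none of them contains another, and matches can overlap. ETS/GABP (CCGGAAG) was found in 23 canonical promoters (30.3%), beside 10.9% of all coding genes and 17.5% of those with an ESC peak. The GC box (GGGCGG) was in 52.6% beside 44.6% and 66.5%, the E-box (CACGTG) in 13.2% beside 7.74% and 9.90%, the CRE (TGACGTCA) in 7.89% beside 2.34% and 3.39%, and YY1 (AAGATGGC) in 6.58% beside 3.43% and 4.74%. NRF1 (GCGCATGCG) was in 2 canonical promoters, Rpl37a and Rpl7, and the Ronin/Staf consensus (ACTACAATT) in 2, Rpl23a and Rps27a, beside 2.10% and 0.492% of all coding genes and 3.54% and 0.738% of those with an ESC peak. The TATA box (TATAAA) was in 9 canonical promoters (11.8%) beside 13.4% and 6.46%, so above the share of genes with an ESC peak but below that of all coding genes, and CCAAT in 31.6% beside 37.6% and 39.0%. Among the 12 genes without an ESC peak ETS/GABP was in 4, the GC box in 4, the TATA box in none and CCAAT in 4. The pseudogene-like members had ETS/GABP in 2 of 54 and TATAAA in 19 of 54. A match describes letters and is no evidence of binding.

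Entries chosen by symbol from other housekeeping families were set beside the canonical genes. These were 77 with Mrpl or Mrps symbols, for the mitochondrial ribosome but with the pseudogene-like Mrps36-ps1, 67 with Eif or Eef symbols, which include regulators such as the kinases Eif2ak1 to Eif2ak4 and Eef2k besides translation factors, and 42 with Psma to Psmd symbols, mostly proteasome subunits but with Psmc3ip. Eef2k, Psmb9 and Psmd14 each have 2 entries in the annotation and were counted for both. A peak was found in 85.7%, 97.4% and 98.7% of the Mrpl and Mrps entries, 83.6%, 95.5% and 94.0% of the Eif and Eef entries and 81.0%, 97.6% and 95.2% of the Psma to Psmd entries in the ESC, D-EPSC and L-EPSC lists.

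The ESC median widths of these 3 families were 485.5 bp (interval 424 to 542), 618.5 bp (499 to 784) and 482.5 bp (410 to 507), beside 360.5 bp (293 to 429) for the canonical genes, and the interval of the Eif and Eef entries did not overlap the canonical one while the others did. The D-EPSC medians were 539, 824 and 598 bp beside 555 bp, and the L-EPSC medians 541.5, 691 and 615.5 bp beside 574 bp. The D-EPSC to ESC ratios were 1.21 (interval 1.15 to 1.39), 1.23 (1.15 to 1.43) and 1.35 (1.14 to 1.64), beside 1.52 (1.31 to 1.82) for the canonical genes. The L-EPSC to ESC ratios were 1.27 (1.12 to 1.32), 1.19 (1.12 to 1.28) and 1.36 (1.20 to 1.58), beside 1.40 (1.33 to 1.74). No test of these differences was made.

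As a check of the cell labels, the starts of 8 pluripotency genes were examined. Pou5f1, Sox2, Klf4, Zfp42 and Dppa5a had a peak in each list, and Nanog, Esrrb and Tdgf1 had one in both EPSC lists and none within 1 kb of a start in ESCs. Of 8 fibroblast genes, 2 had a peak in ESCs, 5 did so in D-EPSCs and 1 in L-EPSCs, and Col3a1, Lum and Prrx1 had none in any list. The Col1a1 peak was the only one of the fibroblast set in L-EPSCs. The part of feeder cells in the ribosomal protein peaks was not tested.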

How the data were processed

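ATAC-seq peaks of 3 cell states were used, as 1 deposited list per state of chromosome, start, end and peak name, with no score. The authors aligned paired reads to mm9 with bowtie2 (2.3.5), kept proper pairs with samtools (1.10) at mapping quality 20 or more, and called peaks with MACS at default settings. How the 2 technical replicates of a state were combined, whether duplicates were removed and whether cut sites were shifted for the transposase is not given in the sources used here. Without the shift peak edges lie slightly off, and deeper or less filtered data give more weak peaks.

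Starts came from protein-coding transcripts of GENCODE M1, and sequence from NCBIM37, the same assembly, and 0 peaks ran past a chromosome end. Peaks were counted within 1000 bp of any start, and the widest was measured. Counting was tested on simulated data and against bedtools (2.31.1), with Python 3.11.15, numpy 2.4.6, pandas 2.3.3 and scipy 1.17.1. Intervals are 95% Wilson intervals for shares and order-statistic intervals for medians, and cover counting error only. The lists hold no value per replicate, so no test across replicates was made here. The members and lists were chosen with earlier results of these data known. Named genes were the canonical genes lacking a peak in a list, the 5 widest and 5 narrowest by mean width, the 3 highest and 3 lowest width ratios of each EPSC list to ESCs, 13 genes of known role, and the members outside the canonical list. Some genes that these rules name are not reported here.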

Additional observations from a re-analysis of the deposited data

How the results depend on the processing

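Counts, medians, ratios and shares were recomputed under 8 to 10 alternatives each: windows of 500 and 2500 bp, the peak midpoint within the window, the start itself inside a peak, a single start per gene, the 28965 widest peaks of each list, peaks of at least 128 bp, canonical genes only and, for widths, bases covered in the window or the summed width of all peaks. None of the 114 recomputed values changed direction or moved by more than its limit (1.5 times for a count). Keeping the 28965 widest peaks or those of at least 128 bp left the ESC list as it was and removed narrow EPSC peaks. Both settings thus select on width and are no check of the width results. Members with a peak ranged from 57 (start inside a peak) to 72 (window of 2500 bp) in ESCs; in D-EPSCs they went from 86 to 78 with equal list lengths. The D-EPSC to ESC width ratio of the members was 1.60 and that of the canonical genes 1.52. No paired analysis was possible because each state has 1 list with no value per replicate, and no replicate could be left out for the same reason. Without scores or depth, a promoter with no peak cannot be told apart from one just under the threshold of the peak caller.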

Other observations

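The symbol rule does not reach every gene of the cytoplasmic ribosome. Fau, whose product yields the small subunit protein eS30, had no ESC peak and peaks of 361 bp in D-EPSCs and, in L-EPSCs, 329 bp. Gnb2l1, the older symbol of the small subunit protein Rack1, had peaks of 786, 583 and 751 bp in ESCs, D-EPSCs and L-EPSCs. The annotation also holds 108 entries with ribosomal protein symbols that it types as pseudogenes, and 3 of them had a peak within 1 kb of the start in ESCs, 6 did so in D-EPSCs and 5 in L-EPSCs.

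Canonical genes are spread over 19 chromosomes, with 14 on chromosome 7 and 4 on the X chromosome.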
